A study of Mus musculus with 6 samples.

Results

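Wnt proteins are secreted, lipid-modified signals that bind a Frizzled receptor and an Lrp5 or Lrp6 co-receptor on the receiving cell. In the canonical branch, binding stabilises beta-catenin, which joins Tcf and Lef factors on target genes, while R-spondins acting through Lgr receptors raise the number of Frizzled molecules at the surface, and Dkk, Sfrp and other secreted inhibitors lower the signal. In the embryonic kidney Wnt9b from the ureteric epithelium induces nephrons, Wnt4 drives the conversion of induced mesenchyme into epithelium, Wnt11 is made by the branching ureteric tip and Wnt7b by the ureteric stalk.

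The genes described are the Wnt ligands, their receptors and their modulators. They were chosen by name from the deposited table: every gene named as a Wnt, Fzd, Rspo, Sfrp, Dkk or Lgr4 to Lgr6 gene, with Lrp5, Lrp6, Wif1, Axin1, Axin2, Nkd1, Nkd2, Notum, Apcdd1, Rnf43, Znrf3, Sp5, Lef1, Tcf7, Tcf7l1, Tcf7l2 and Ctnnb1. This gave 61 of the 22667 genes listed, and all 61 held values. Of these, 45 reached a mean of 1 cRPKM over the libraries, the minimum for the test, and 16 did not.

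The libraries came from embryonic mouse kidneys at E13.5, 3 of them from homozygous Fat4 mutants (Fat4-/-) and 3 from wildtype littermates (Fat4+/+), on the strain written as C57BL6/6 and backcrossed 6 times. Each library pooled the 2 kidneys of 1 embryo after most of the ureter had been cut away, so it holds ureteric bud, condensing mesenchyme and stroma together, and a smaller number of cells of a type cannot be told apart from less RNA per cell. All embryos came from 1 pregnant female, and the labels do not say which part of Fat4 the mutation removes or limit it to a cell type. Expression is in cRPKM, read here as a corrected form of RPKM, which is read density scaled for gene length and sequencing depth and allows levels to be compared between genes.

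Fat4, the mutated cadherin gene, had 7.82, 7.20 and 7.49 cRPKM in Fat4-/- embryos 1 to 3, against 16.74, 15.69 and 16.83 cRPKM in Fat4+/+ embryos 1 to 3, and the groups did not overlap (log2 fold change -1.03, SE 0.0476, limma adjusted p = 0.000155). The number of reads behind each library is unknown. Summed cRPKM lay between 473695 and 503223 per library, and the spacing of low values gave relative depths of 0.906 to 1.036 with Fat4+/+ embryo 1 set to 1, in a search limited to factors near 1. These depths are rough, as the factor accounted for only 17 of 35 genes used in Fat4+/+ embryo 3 and for 22 of 32 in Fat4-/- embryo 2. Of 4 genes on the Y chromosome (Uty, Kdm5d, Ddx3y and Eif2s3y), Fat4-/- embryos 2 and 3 had at most 0.05 cRPKM each, whereas Fat4-/- embryo 1 and all 3 Fat4+/+ embryos had at least 7.79 cRPKM of each, so sex was uneven between the genotypes. Fat4+/+ embryo 3 stood apart for nerve genes, where Tubb3 was at 4.57 and Th at 1.41 cRPKM, while no other library exceeded 1.25 for Tubb3 or 0.37 for Th. Of the adrenal list, 4 of 5 genes (Nr5a1, Cyp11a1, Cyp17a1 and Hsd3b1) stayed under 0.5 cRPKM in every library, and Star lay between 1.81 and 2.08 cRPKM. The summed gonad and germ cell markers (Amh, Dhh, Ddx4, Dazl, Sox9 and Pou5f1) overlapped between the genotypes. Among them Ddx4 and Dhh were lower and Amh higher in all 3 Fat4-/- embryos, each at or under 0.57 cRPKM in every library. The summed markers of endothelium, erythroid cells and macrophages overlapped between the genotypes. All 6 endothelial markers nevertheless had a log2 fold change below 0. Tek (77.0% of the Fat4+/+ mean) and Emcn (87.3%) were lower without overlap, beside 11.0% of all tested genes. None of the 6 had a limma adjusted p under 0.05.

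The comparison asked how Wnt genes differed between Fat4 mutant and wildtype kidneys. The ligand Wnt6 and the R-spondin Rspo1 rose in Fat4-/- kidneys, and the receptor Fzd1 and the inhibitors Dkk1 and Apcdd1 fell. These were 5 of 45 tested members, or 11.1%, where 1.43% of all 12315 tested genes passed (limma on log2(cRPKM + 1), adjusted p under 0.05 over all genes). By direction, 2 members rose, beside 0.552% of all tested genes, and 3 fell, beside 0.877%. The median log2 fold change was -0.03 over tested members and -0.01 over all tested genes, and the median absolute log2 fold change was 0.17 over members and 0.05 over all tested genes. An unadjusted p under 0.05 was found for 6 members with a higher and 13 with a lower level in Fat4-/- kidneys (background 5.08% and 7.97%). The values of the groups did not overlap for 20 of 45 tested members, beside 18.2% of all tested genes. They were higher in Fat4-/- kidneys for 7 members, beside 7.23% of all tested genes, and lower for 13, beside 11.0%.

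The uneven sex of the embryos touches all of these results. Fat4-/- embryo 1 was the only mutant with Y-linked expression. A fit with that expression as a covariate therefore compares, in effect, this embryo with the 3 Fat4+/+ embryos. It leaves 3 residual degrees of freedom, against 4 without the covariate. A call lost in it cannot separate an effect of sex from the smaller comparison. With the mean log2(cRPKM + 1) of the Y-linked genes as a covariate in limma, none of 45 tested members and 2 of all 12315 tested genes (0.0162%) had an adjusted p under 0.05. At an unadjusted p under 0.05 there were 14 members, 3 higher and 11 lower in Fat4-/- kidneys, beside 5.59% of all tested genes. The log2 fold changes in that fit were 0.38 for Wnt6, 0.31 for Rspo1, -0.38 for Fzd1, -0.57 for Dkk1 and -0.48 for Apcdd1, with adjusted p of 0.566, 0.489, 0.227, 0.239 and 0.227. Of the 5, only Apcdd1 passed when each of the 6 libraries was left out in turn, and only Apcdd1 passed with no filter on low values (adjusted p = 0.0414, against 0.104 for Wnt6, 0.0749 for Rspo1, 0.0785 for Fzd1 and 0.104 for Dkk1). With library weights Wnt6 did not pass (adjusted p = 0.0618).

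**Figure D1:**
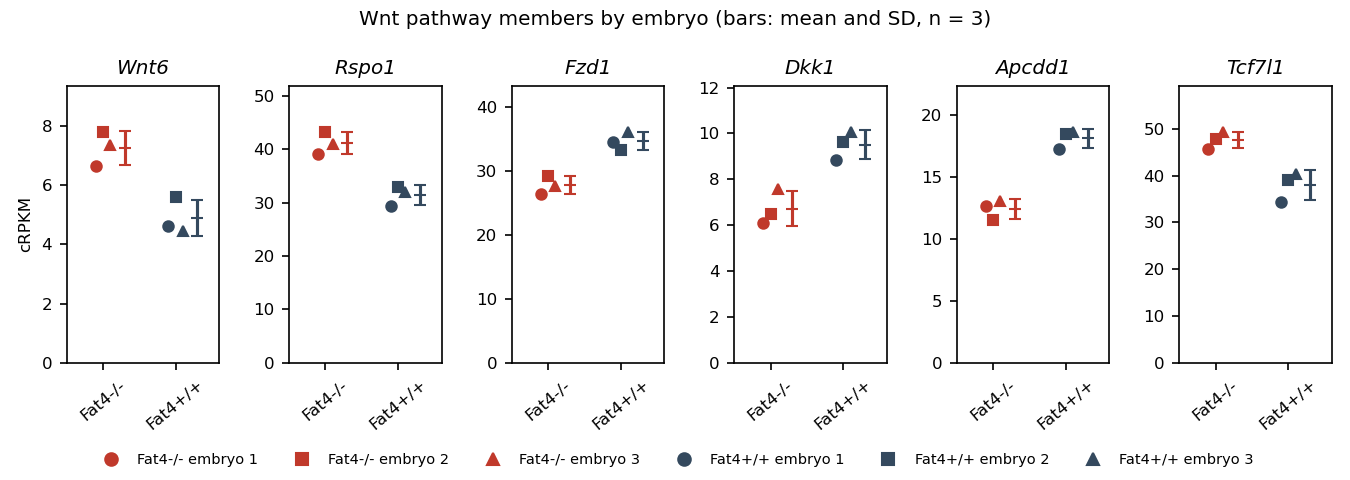
Expression in cRPKM of the 5 Wnt members that passed the test and of Tcf7l1, the next by p, in each of 3 Fat4-/- (red, left) and 3 Fat4+/+ (dark, right) embryos, with group mean and SD beside the points. In all 6 panels the Fat4-/- points lie entirely above (Wnt6, Rspo1, Tcf7l1) or entirely below (Fzd1, Dkk1, Apcdd1) the Fat4+/+ points.

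Promoter sequence is shown for the members that passed and had an entry in the RefSeq promoter table (build GRCm38.p6), which matched 40 of the 61 members with 50 start sites. The bases before the annotated start are given 5′ to 3′ on the strand of the gene, with capitals marking CTTTGA or its reverse complement TCAAAG, the core of the Tcf and Lef recognition sequence. The Fzd1 stretch is chr5:4758217-4758466 on the minus strand, the Rspo1 stretch chr4:124986180-124986429 on the plus strand and the Wnt6 stretch chr1:74771642-74771891 on the plus strand, each of 250 bases.
Fzd1: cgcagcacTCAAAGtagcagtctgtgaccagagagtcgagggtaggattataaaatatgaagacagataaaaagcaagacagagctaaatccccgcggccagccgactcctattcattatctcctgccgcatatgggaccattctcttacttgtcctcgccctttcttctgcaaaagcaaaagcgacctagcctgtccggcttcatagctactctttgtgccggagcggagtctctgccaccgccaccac
Rspo1: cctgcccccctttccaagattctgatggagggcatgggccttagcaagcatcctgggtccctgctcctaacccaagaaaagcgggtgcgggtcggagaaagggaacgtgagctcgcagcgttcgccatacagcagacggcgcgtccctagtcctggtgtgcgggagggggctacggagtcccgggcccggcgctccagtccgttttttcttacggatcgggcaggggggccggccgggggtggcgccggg
Wnt6: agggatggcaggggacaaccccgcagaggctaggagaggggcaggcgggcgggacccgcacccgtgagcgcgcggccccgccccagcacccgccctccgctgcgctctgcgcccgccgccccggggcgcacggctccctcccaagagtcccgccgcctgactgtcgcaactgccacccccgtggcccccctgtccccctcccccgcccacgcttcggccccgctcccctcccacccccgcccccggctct

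For Dkk1, on the minus strand of chromosome 19, the motif stood at 2 places in the same window, and only these are shown, with 10 bases on each side, because another annotation starts a Dkk1 transcript inside the window.
Dkk1, chr19:30549655-30549680: ggggagagtgTCAAAGtcctccctgc
Dkk1, chr19:30549598-30549623: cctcccaaagCTTTGAaatcccatcc

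The motif began 242 bases before the RefSeq start of Fzd1 and 174 and 117 bases before that of Dkk1, and was not in the windows of Rspo1 and Wnt6. These distances hold for the RefSeq starts only. The other annotation starts Dkk1 at chr19:30549665, so the site at 117 bases lies inside that transcript and the site at 174 bases ends on its first base. The letters were found in 6 of 50 member windows (12.0%) and in 4544 of 32851 windows of the same length in the whole table (13.8%), so the share among members was close to that of all promoters. The other member windows that held them were 1 start site each of Lef1, Sp5, Wnt5b and Wnt11. GC content was 51.2% in the Fzd1 window, 60.8% in that of Dkk1, 66.8% in that of Rspo1 and 79.6% in that of Wnt6.

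Of the 19 ligand genes, 9 were high enough to test, 1 rose (Wnt6), none fell and 8 did not pass. Wnt6, a ligand of the ureteric bud, had 6.66, 7.80 and 7.37 cRPKM in Fat4-/- embryos 1 to 3, against 4.64, 5.60 and 4.47 cRPKM in Fat4+/+ embryos 1 to 3. The Fat4-/- libraries were all above the Fat4+/+ libraries, with a mean at 148% of the Fat4+/+ mean. The log2 fold change was 0.49 (SE 0.0820, 95% interval 0.30 to 0.68, limma adjusted p = 0.0316), the highest among the tested members. The call ended when any of 5 libraries was left out, with an adjusted p of 0.0702, 0.119 and 0.123 without Fat4-/- embryos 1, 2 and 3 and of 0.0769 and 0.0562 without Fat4+/+ embryos 1 and 3. Wnt10a, which lies 6.2 kb from Wnt6 on chromosome 1, was at 0.21, 0.21 and 0.25 cRPKM in Fat4-/- embryos and 0.17, 0.25 and 0.28 cRPKM in Fat4+/+ embryos, and the groups overlapped.

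None of 3 other ligands of the ureteric tree passed. Wnt7b had 2.03, 2.19 and 2.17 cRPKM in Fat4-/- embryos, against 2.57, 2.79 and 3.36 cRPKM in Fat4+/+ embryos, so the groups did not overlap, but the difference did not pass (log2 fold change -0.32, 95% interval -0.50 to -0.13, adjusted p = 0.110). Wnt9b had 7.65, 7.07 and 7.28 cRPKM in Fat4-/- embryos and 7.08, 7.83 and 8.57 cRPKM in Fat4+/+ embryos, with overlap (log2 fold change -0.08, 95% interval -0.23 to 0.07, adjusted p = 0.680). Wnt11 had 13.97, 13.88 and 14.73 cRPKM in Fat4-/- embryos and 13.46, 13.70 and 15.24 cRPKM in Fat4+/+ embryos, again with overlap (log2 fold change 0.01, 95% interval -0.12 to 0.13, adjusted p = 0.975). The direct differences between these genes' changes were not tested.

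Wnt6 and the other ligands of the ureteric tree are set beside its summed markers, which were not tested as sums. The 6 tip markers (Ret, Etv4, Etv5, Gfra1, Adamts18 and Ros1) summed to between 184.66 and 196.5 cRPKM in Fat4-/- embryos and between 149.84 and 179.09 cRPKM in Fat4+/+ embryos. None of the 6 passed in limma and 3 had an unadjusted p under 0.05, all higher (background 5.08%). The 8 markers of the ureteric epithelium as a whole (Cdh1, Epcam, Krt8, Krt18, Krt19, Calb1, Gata3 and Emx2) summed to between 259.19 and 269.7 cRPKM in Fat4-/- embryos and between 273.33 and 318.58 cRPKM in Fat4+/+ embryos. None of these 8 passed in limma and 6 had an unadjusted p under 0.05, all lower (background 7.97%). Not all of these markers were lower: Calb1 was at 109% and Gata3 at 97.7% of the Fat4+/+ mean, both with overlap, while Cdh1 (74.2%) and Krt19 (72.3%) were close to Wnt7b (73.3%). Relative to 100 cRPKM of summed tip markers, Wnt6 was at 3.59, 4.22 and 3.75 in Fat4-/- embryos and 3.10, 3.41 and 2.50 in Fat4+/+ embryos, which did not overlap. Per 100 cRPKM of the epithelial markers it was at 2.76 ± 0.193 in Fat4-/- and 1.70 ± 0.298 in Fat4+/+ embryos, Wnt7b at 0.807 ± 0.032 and 0.997 ± 0.057, and Wnt9b at 2.78 ± 0.148 and 2.69 ± 0.102 (SD, n = 3 each). On this scale too the groups did not overlap for Wnt6 and Wnt7b and did for Wnt9b. Wnt11 per 100 cRPKM of tip markers was at 7.52, 7.52 and 7.50 in Fat4-/- embryos and 8.98, 8.33 and 8.51 in Fat4+/+ embryos.

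Wnt4, the signal of pretubular aggregates and renal vesicles, was the most abundant ligand in every library. It had 29.06, 31.88 and 30.55 cRPKM in Fat4-/- embryos and 25.11, 30.49 and 33.14 cRPKM in Fat4+/+ embryos, with overlap (log2 fold change 0.05, 95% interval -0.16 to 0.26, adjusted p = 0.870). Wnt11 was next in level. Behind it, Wnt5b, Wnt9b, Wnt6 and Wnt5a averaged 7.37 ± 0.593, 7.33 ± 0.294, 7.28 ± 0.576 and 6.77 ± 0.551 cRPKM in Fat4-/- embryos, neighbours that did not differ beyond their spread. In Fat4+/+ embryos the same genes averaged 6.63 ± 0.272, 7.83 ± 0.745, 4.90 ± 0.609 and 8.46 ± 0.0751 cRPKM (SD, n = 3), so Wnt6 was the lowest of these ligands there.

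**Figure D2:**
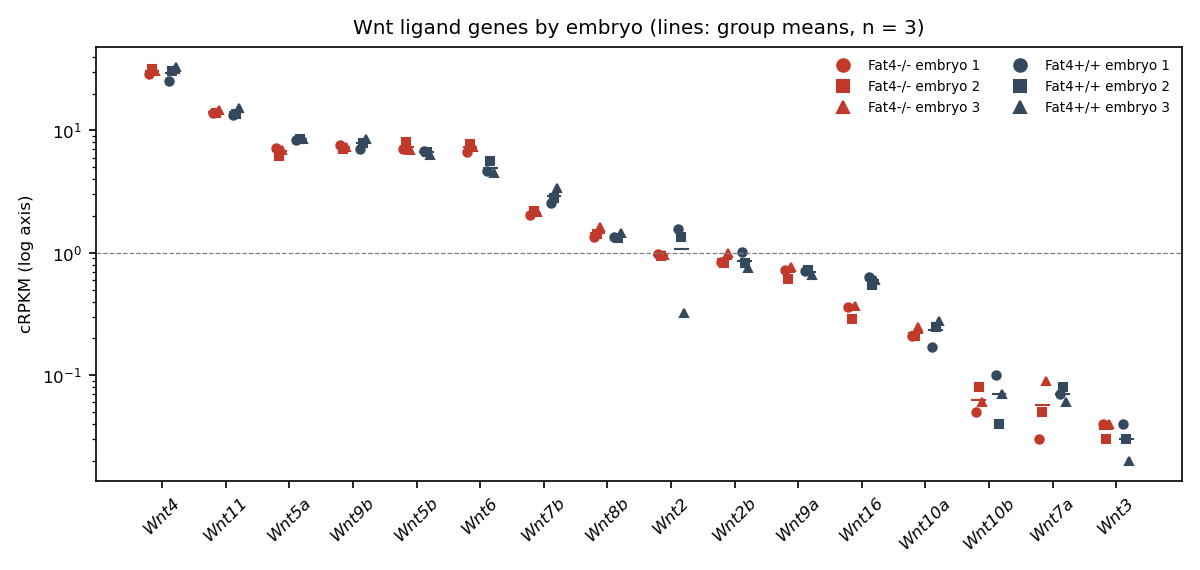
Level in cRPKM (log axis) of the Wnt ligand genes above 0 in every library, ordered by mean level, in Fat4-/- (red, left of each pair) and Fat4+/+ (dark, right) embryos; short lines are means of 3 embryos and the dashed line is the minimum of 1 cRPKM. Wnt6 lies higher and Wnt5a and Wnt7b lie lower in all 3 Fat4-/- embryos, while Wnt4, Wnt11 and Wnt9b overlap.

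Wnt5a, a ligand of the mesenchyme that acts largely outside the beta-catenin branch, had 7.25, 6.17 and 6.90 cRPKM in Fat4-/- embryos, against 8.39, 8.46 and 8.54 cRPKM in Fat4+/+ embryos. The groups did not overlap, but the difference did not pass (log2 fold change -0.29, 95% interval -0.42 to -0.15, adjusted p = 0.0590, and 0.0424 to 0.770 over 16 alternatives). Markers of medullary stroma and ureter mesenchyme (Alx1, Penk, Tbx18, Acta2, Tagln and Cnn1) summed to between 33.23 and 37.05 cRPKM in Fat4-/- embryos and between 40.21 and 54.35 cRPKM in Fat4+/+ embryos. Of 5 tested, 1 passed, lower (Alx1), beside 0.877% of all tested genes. Per 100 cRPKM of these markers, Wnt5a was at 19.7 ± 2.68 in Fat4-/- and 17.7 ± 2.94 in Fat4+/+ embryos (SD, n = 3 each), with overlap. Wnt5b was at 7.07, 8.05 and 6.98 cRPKM in Fat4-/- embryos and 6.84, 6.72 and 6.32 cRPKM in Fat4+/+ embryos, higher in Fat4-/- embryos without overlap (log2 fold change 0.13, adjusted p = 0.407). Of the other tested ligands, Wnt8b was at 1.46 ± 0.143 cRPKM in Fat4-/- and 1.37 ± 0.0721 cRPKM in Fat4+/+ embryos (SD, n = 3 each, adjusted p = 0.799). Wnt2 was at 0.98, 0.95 and 0.96 cRPKM in Fat4-/- embryos and 1.57, 1.35 and 0.32 cRPKM in Fat4+/+ embryos, where embryo 3, the library that stood apart for nerve genes, lay below the other two.

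The remaining 10 ligand genes were too low to test. Wnt2b, a stromal ligand, had 0.84, 0.82 and 0.99 cRPKM in Fat4-/- embryos and 1.01, 0.82 and 0.75 cRPKM in Fat4+/+ embryos. Wnt16 had 0.36, 0.29 and 0.37 cRPKM in Fat4-/- embryos, against 0.64, 0.55 and 0.60 cRPKM in Fat4+/+ embryos, and the groups did not overlap. With no filter on low values, Wnt16 had an adjusted p of 0.0714. Wnt9a lay between 0.61 and 0.77 cRPKM in every library, and Wnt3, Wnt7a, Wnt8a, Wnt10a and Wnt10b at or under 0.28 cRPKM. Wnt1 and Wnt3a were listed at 0 in all 6 libraries.

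Among the 12 receptor and co-receptor genes, 11 were tested, 1 fell (Fzd1), none rose and 10 did not pass. Fzd1 had 26.43, 29.19 and 27.72 cRPKM in Fat4-/- embryos, against 34.59, 33.33 and 36.08 cRPKM in Fat4+/+ embryos. The groups did not overlap and the Fat4-/- mean was 80.1% of the Fat4+/+ mean (log2 fold change -0.31, SE 0.0491, 95% interval -0.42 to -0.20, adjusted p = 0.0266). Without Fat4-/- embryos 1, 2 or 3 the adjusted p was 0.0895, 0.0594 and 0.0983, and without Fat4+/+ embryos 1 or 3 it was 0.0684 and 0.0574, so these omissions ended the call.

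Other Frizzled genes differed in direction from one to the next. Fzd2 had 57.09, 63.98 and 64.75 cRPKM in Fat4-/- embryos and 50.75, 57.36 and 50.46 cRPKM in Fat4+/+ embryos, which overlapped (log2 fold change 0.23, adjusted p = 0.179). Fzd7, close to Fzd2 in level, had 57.29, 60.95 and 60.44 cRPKM in Fat4-/- embryos and 53.25, 56.77 and 53.33 cRPKM in Fat4+/+ embryos, with no overlap (log2 fold change 0.13, adjusted p = 0.263). Fzd10 had 4.02, 3.94 and 4.46 cRPKM in Fat4-/- embryos and 4.74, 5.15 and 5.54 cRPKM in Fat4+/+ embryos, with no overlap (log2 fold change -0.26, adjusted p = 0.115). Thus the most abundant Frizzled genes, Fzd2 and Fzd7, had higher means in Fat4-/- embryos, while Fzd1, the next in level, fell. Fzd6 (log2 fold change -0.15, adjusted p = 0.259) and Fzd5 (-0.20, adjusted p = 0.366) were lower in all 3 Fat4-/- embryos than in any Fat4+/+ embryo without passing. Fzd3, Fzd4 and Fzd8 overlapped between the groups, and Fzd9 stayed at or under 0.52 cRPKM in every library. The co-receptor Lrp6 was at 26.5 ± 1.65 cRPKM in Fat4-/- and 26.9 ± 1.78 cRPKM in Fat4+/+ embryos, and Lrp5 at 23.1 ± 1.62 and 22.6 ± 2.77 cRPKM (SD, n = 3 each). Their log2 fold changes had 95% intervals of -0.16 to 0.12 and -0.16 to 0.23.

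Of the 7 R-spondin and Lgr genes, 4 were tested, 1 rose (Rspo1), none fell and 3 did not pass. The groups did not overlap for any of the 4 tested genes, beside 18.2% of all tested genes without overlap. Rspo1 and Rspo3 were higher (background 7.23%) and Lgr4 and Lgr5 lower (background 11.0%) in Fat4-/- embryos. Rspo1 had 39.11, 43.20 and 41.06 cRPKM in Fat4-/- embryos, against 29.38, 32.87 and 32.04 cRPKM in Fat4+/+ embryos. It rose to 131% of the Fat4+/+ mean (log2 fold change 0.38, SE 0.0549, 95% interval 0.25 to 0.50, adjusted p = 0.0224). The adjusted p was 0.0548, 0.0735 and 0.0816 without Fat4-/- embryos 1, 2 and 3, which ended the call, and at most 0.0459 without any 1 Fat4+/+ embryo. Rspo3 had 13.87, 16.45 and 14.02 cRPKM in Fat4-/- embryos and 12.65, 12.34 and 11.02 cRPKM in Fat4+/+ embryos (log2 fold change 0.28, 95% interval 0.11 to 0.45, adjusted p = 0.134).

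Lgr4, the most abundant Lgr gene here, had 28.32, 27.14 and 27.77 cRPKM in Fat4-/- embryos, against 31.30, 30.87 and 33.83 cRPKM in Fat4+/+ embryos (log2 fold change -0.20, 95% interval -0.30 to -0.09, adjusted p = 0.0853). Lgr5, a receptor and Wnt target of the early nephron, had 2.22, 2.32 and 2.72 cRPKM in Fat4-/- embryos, against 3.19, 3.19 and 3.66 cRPKM in Fat4+/+ embryos (log2 fold change -0.35, 95% interval -0.52 to -0.18, adjusted p = 0.0699). The groups did not overlap for either receptor, but neither passed. Lgr6 was too low to test, at 0.70, 0.64 and 0.80 cRPKM in Fat4-/- embryos against 0.38, 0.46 and 0.54 cRPKM in Fat4+/+ embryos, with no overlap, so its values lay in the opposite direction to those of Lgr4 and Lgr5. With no filter on low values its adjusted p was 0.152. Rspo2 and Rspo4 stayed at or under 0.23 cRPKM in every library.

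Nephron progenitors, the cap mesenchyme, make R-spondins in this tissue, and the summed markers of that compartment were higher in all 3 Fat4-/- embryos, as Rspo1 was. The 8 cap mesenchyme markers (Six2, Cited1, Meox1, Eya1, Osr1, Itga8, Crym and Uncx) summed to 369.2, 402.6 and 426.01 cRPKM in Fat4-/- embryos, against 317.78, 348.73 and 307.83 cRPKM in Fat4+/+ embryos. Of the 8, 2 passed, both higher (Eya1 and Osr1), beside 0.552% of all tested genes. Per 100 cRPKM of these markers Rspo1 was at 10.6, 10.7 and 9.64 in Fat4-/- embryos and 9.25, 9.43 and 10.4 in Fat4+/+ embryos. Rspo3 was at 3.71 ± 0.399 in Fat4-/- and 3.70 ± 0.244 in Fat4+/+ embryos on the same scale (SD, n = 3 each). Relative to the markers, both genes overlapped between the groups. Not all of the markers were higher. Crym was at 87.0% and Cited1 at 107% of the Fat4+/+ mean, both with overlap. Crym had 43.80 and 44.94 cRPKM in Fat4+/+ embryos 1 and 2 but 23.80 cRPKM in embryo 3.

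**Figure D3:**
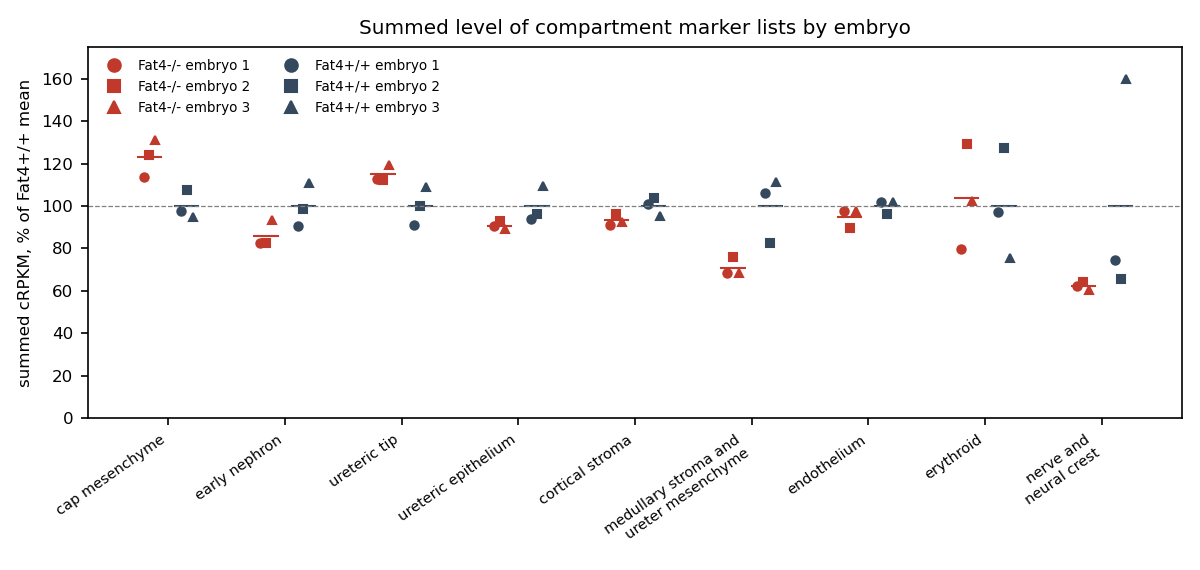
Summed cRPKM of compartment marker lists as a percentage of the Fat4+/+ mean, in Fat4-/- (red, left) and Fat4+/+ (dark, right) embryos, with a line at each mean of 3 embryos. Cap mesenchyme and ureteric tip sums are higher in all 3 Fat4-/- embryos, and medullary stroma, ureteric epithelium and nerve sums are lower in all 3. For nerve genes Fat4+/+ embryo 3 stands apart at 160.0%, while Fat4+/+ embryo 2, at 65.6%, lies close to Fat4-/- embryo 2, at 64.2%.

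Of the 10 secreted inhibitor genes, 8 were tested, 1 fell (Dkk1), none rose and 7 did not pass. Dkk1 blocks the Lrp co-receptors. It had 6.09, 6.48 and 7.56 cRPKM in Fat4-/- embryos, against 8.83, 9.65 and 10.06 cRPKM in Fat4+/+ embryos, with no overlap and a mean at 70.5% of the Fat4+/+ mean (log2 fold change -0.45, SE 0.0766, 95% interval -0.63 to -0.27, adjusted p = 0.0332). Without Fat4-/- embryos 1 or 2 the adjusted p was 0.106 and 0.123, and without Fat4+/+ embryos 2 or 3 it was 0.0812 and 0.0645, so these omissions ended the call.

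Dkk1 and Lgr5 are genes of the renal vesicle, so they are set beside the markers of early nephrons. The 8 markers (Pax8, Lhx1, Fgf8, Jag1, Ccnd1, Cdh6, Papss2 and Osr2) summed to 242.3, 241.92 and 273.74 cRPKM in Fat4-/- embryos and 266.12, 289.64 and 324.77 cRPKM in Fat4+/+ embryos, which overlapped. Of the 8, 1 passed, lower (Papss2), beside 0.877% of all tested genes. Per 100 cRPKM of these markers Dkk1 was at 2.51, 2.68 and 2.76 in Fat4-/- embryos, against 3.32, 3.33 and 3.10 in Fat4+/+ embryos. Lgr5 was at 0.916, 0.959 and 0.994 in Fat4-/- embryos, against 1.20, 1.10 and 1.13 in Fat4+/+ embryos. Wnt4, by contrast, was at 12.0, 13.2 and 11.2 in Fat4-/- embryos and 9.44, 10.5 and 10.2 in Fat4+/+ embryos. On this scale the groups did not overlap for any of these genes, Dkk1 and Lgr5 being lower and Wnt4 higher in Fat4-/- embryos. The sum rests mostly on Ccnd1, which averaged 153 cRPKM in Fat4-/- and 172 cRPKM in Fat4+/+ embryos, or 88.6% of the Fat4+/+ mean. Some single markers were lower than Dkk1 (70.5%) and Lgr5 (72.3%) or close to them. Osr2 was at 60.3% and Cdh6 at 60.9% of the Fat4+/+ mean, both without overlap and neither passing, and Papss2 was at 72.6%. The remaining markers of the list moved less. Lhx1 was at 81.9%, Jag1 at 83.0%, Pax8 at 97.5% and Fgf8 at 102%, each with overlap.

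Dkk3, a divergent relative of Dkk1, had 4.22, 4.27 and 4.06 cRPKM in Fat4-/- embryos, against 6.66, 5.30 and 5.30 cRPKM in Fat4+/+ embryos, with no overlap (log2 fold change -0.38, 95% interval -0.56 to -0.19, adjusted p = 0.0672). Wif1, which binds Wnt proteins directly, had 0.77, 0.86 and 0.93 cRPKM in Fat4-/- embryos and 1.59, 1.33 and 0.90 cRPKM in Fat4+/+ embryos, with overlap (log2 fold change -0.28, adjusted p = 0.322). The Sfrp genes encode decoys that resemble the ligand-binding part of Frizzled. Sfrp2, the most abundant of the inhibitors, had 65.53, 83.26 and 71.88 cRPKM in Fat4-/- embryos and 92.77, 78.53 and 77.33 cRPKM in Fat4+/+ embryos (log2 fold change -0.17, 95% interval -0.39 to 0.05, adjusted p = 0.515). Sfrp1 had 40.49, 41.37 and 41.11 cRPKM in Fat4-/- embryos and 46.63, 40.88 and 29.61 cRPKM in Fat4+/+ embryos, so the spread lay within the Fat4+/+ group (log2 fold change 0.09, 95% interval -0.22 to 0.40, and -0.09 without Fat4+/+ embryo 3). Dkk2 and Sfrp4 were also spread within the Fat4+/+ group. Dkk2 had 5.84, 6.33 and 6.56 cRPKM in Fat4-/- embryos and 10.53, 7.42 and 4.87 cRPKM in Fat4+/+ embryos, and Sfrp4 had 0.86, 0.64 and 0.92 cRPKM in Fat4-/- embryos and 2.53, 1.48 and 0.49 cRPKM in Fat4+/+ embryos. Notum, an enzyme that removes the lipid from Wnt proteins, was at 4.03 ± 0.270 cRPKM in Fat4-/- and 4.23 ± 0.256 cRPKM in Fat4+/+ embryos (SD, n = 3 each, adjusted p = 0.776). Sfrp5 stayed at or under 0.60 cRPKM and Dkk4 at or under 0.01 cRPKM in every library.

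Among 7 genes of feedback and receptor turnover, all tested, 1 fell (Apcdd1), none rose and 6 did not pass. Apcdd1 encodes a membrane protein that binds Wnt and Lrp proteins and lowers signalling, and is itself a Wnt target. It had 12.66, 11.49 and 13.03 cRPKM in Fat4-/- embryos, against 17.19, 18.45 and 18.59 cRPKM in Fat4+/+ embryos, with no overlap and a mean at 68.6% of the Fat4+/+ mean. Its log2 fold change of -0.51 (SE 0.0554, 95% interval -0.64 to -0.38, adjusted p = 0.00805) was the lowest among the tested members. It passed without each library in turn, with an adjusted p of at most 0.0380.

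None of the other feedback genes passed. Nkd1, a target that dampens Dishevelled, had 10.37, 10.84 and 11.09 cRPKM in Fat4-/- embryos, against 12.01, 12.88 and 13.27 cRPKM in Fat4+/+ embryos, with no overlap (log2 fold change -0.22, 95% interval -0.33 to -0.11, adjusted p = 0.0785, and under 0.05 in 2 of 16 alternatives, the lowest being 0.0432). Axin2, the target most widely used as a readout of canonical signalling, had 12.71, 12.73 and 13.40 cRPKM in Fat4-/- embryos and 10.98, 12.27 and 12.99 cRPKM in Fat4+/+ embryos, with overlap (log2 fold change 0.10, 95% interval -0.04 to 0.23, adjusted p = 0.577). Axin1, the scaffold of the destruction complex, was at 24.3 ± 0.239 cRPKM in Fat4-/- and 23.1 ± 0.657 cRPKM in Fat4+/+ embryos (SD, n = 3 each, adjusted p = 0.471). Nkd2 had a log2 fold change of -0.11 (adjusted p = 0.511). The ligases Rnf43 and Znrf3, which remove Frizzled from the surface, had log2 fold changes of -0.01 and 0.01 with 95% intervals of -0.17 to 0.15 and -0.19 to 0.21.

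None of 6 nuclear genes passed in limma, and 1 had an unadjusted p under 0.05, beside 13.0% of all tested genes. That was Tcf7l1, a Tcf factor that mainly represses targets, with 45.73, 47.81 and 49.31 cRPKM in Fat4-/- embryos against 34.29, 39.08 and 40.39 cRPKM in Fat4+/+ embryos. The groups did not overlap (log2 fold change 0.32, SE 0.0630, 95% interval 0.18 to 0.47, adjusted p = 0.0531), and it passed in 4 of 16 alternatives, whose adjusted p ran between 0.0190 and 0.702. Without Fat4+/+ embryo 3 the adjusted p was 0.0403. Tcf7l1 per 100 cRPKM of cap mesenchyme markers was at 11.9 ± 0.410 in Fat4-/- and 11.7 ± 1.24 in Fat4+/+ embryos (SD, n = 3 each), with overlap. Tcf7l2 had a log2 fold change of 0.15 (adjusted p = 0.446) and Tcf7 of 0.02 (adjusted p = 0.942). Lef1, a factor and target of the pathway, had 8.36, 8.50 and 9.25 cRPKM in Fat4-/- embryos and 8.46, 10.32 and 11.80 cRPKM in Fat4+/+ embryos, with overlap (log2 fold change -0.20, 95% interval -0.42 to 0.03, adjusted p = 0.465). Sp5, another target, was at 1.47 ± 0.177 cRPKM in Fat4-/- and 1.31 ± 0.214 cRPKM in Fat4+/+ embryos (SD, n = 3 each, adjusted p = 0.700). Ctnnb1, for beta-catenin, was the most abundant member, at 451.71, 464.01 and 456.17 cRPKM in Fat4-/- embryos and 452.71, 452.55 and 440.20 cRPKM in Fat4+/+ embryos (log2 fold change 0.03, 95% interval -0.08 to 0.13, adjusted p = 0.856).

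**Figure D4:**
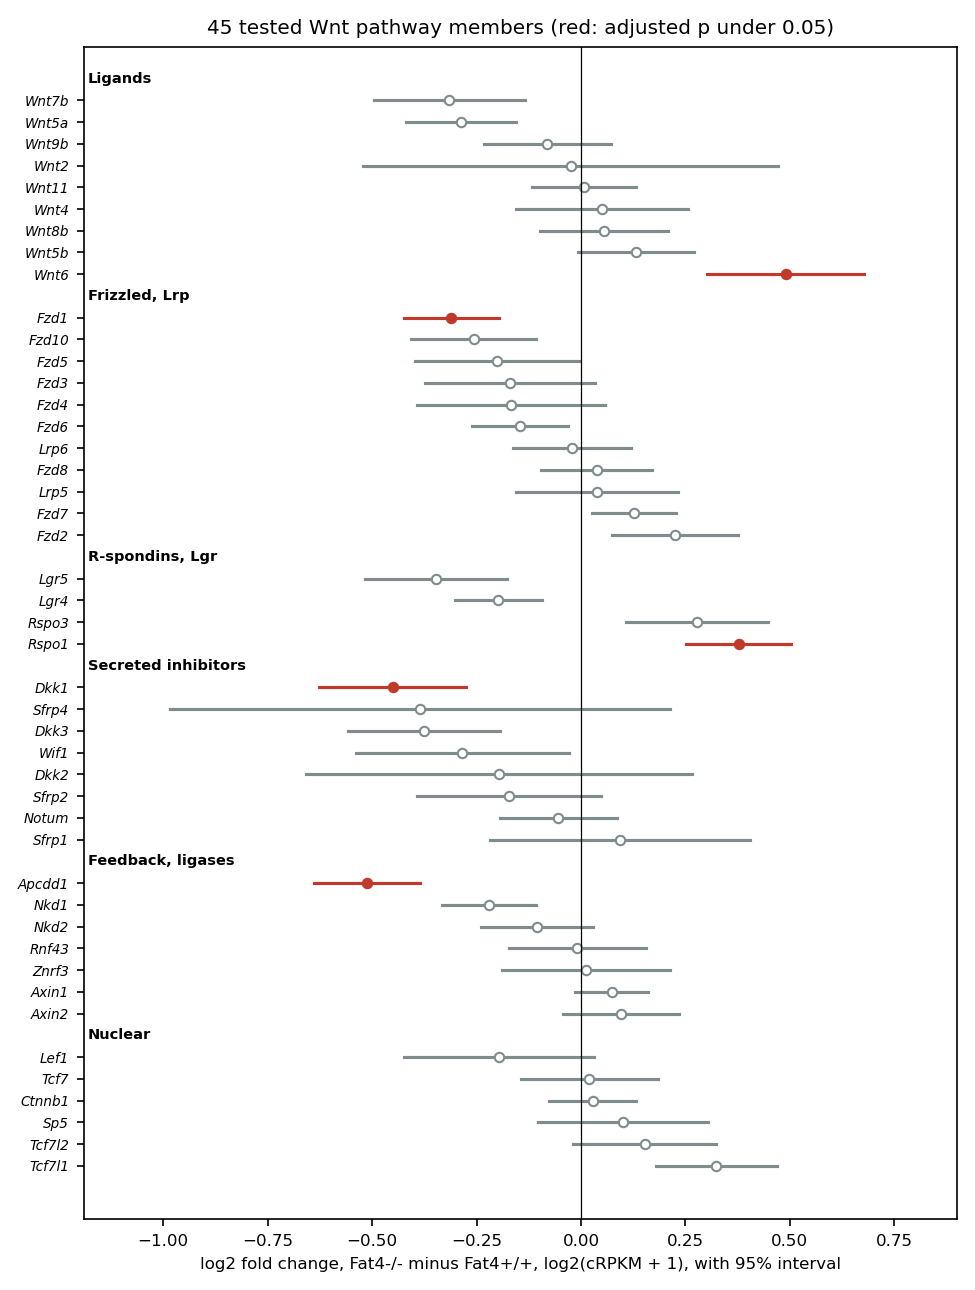
Log2 fold change (Fat4-/- minus Fat4+/+, on log2(cRPKM + 1)) with its 95% interval for the 45 tested members, grouped by role; filled red points passed an adjusted p under 0.05. The members that passed are Wnt6 and Rspo1 to the right of 0 and Fzd1, Dkk1 and Apcdd1 to the left.

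Apcdd1 and Fzd1 are not assigned to a single compartment here. Cortical stroma markers (Foxd1, Pdgfra, Meis1, Aldh1a2, Snai2 and Tcf21) summed to between 437.17 and 462.0 cRPKM in Fat4-/- embryos and between 458.02 and 497.37 cRPKM in Fat4+/+ embryos, with 1 of 6 passing, lower (Pdgfra), beside 0.877% of all tested genes. On the scale of 100 cRPKM of these, Apcdd1 was at 2.77 ± 0.248 in Fat4-/- and 3.77 ± 0.261 in Fat4+/+ embryos, and Fzd1 at 6.20 ± 0.140 and 7.24 ± 0.594 (SD, n = 3 each), neither with overlap. Aldh1a2, at 224 cRPKM in Fat4-/- and 226 cRPKM in Fat4+/+ embryos (99.3%), was the largest component of that sum. Foxd1 (103%) and Meis1 (101%) also stayed close to the Fat4+/+ mean, and like Aldh1a2 they overlapped between the groups. Pdgfra (71.0%), Tcf21 (83.3%) and Snai2 (83.9%) were each lower in all 3 Fat4-/- embryos than in any Fat4+/+ embryo, beside 68.6% for Apcdd1 and 80.1% for Fzd1. Only Pdgfra passed among these 3 markers. The share of any marker shift in the changes of Wnt genes was not tested.

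A list of 52 genes, called further pathway genes here, was set beside the members. It holds components of the pathway, but also 7 cap mesenchyme genes and 6 genes of nephron commitment. The list was chosen with earlier results of these data known, so its share of calls does not describe the pathway alone. Of 51 tested, 2 rose, 1 fell and 48 did not pass, or 5.88% called beside 1.43% of all tested genes. Those that rose were Btbd11, with 17.50, 17.87 and 18.88 cRPKM in Fat4-/- embryos against 12.93, 14.26 and 14.55 cRPKM in Fat4+/+ embryos (log2 fold change 0.36, adjusted p = 0.0229), and the ion cotransporter gene Slc12a2, with 48.71, 48.01 and 47.94 cRPKM in Fat4-/- embryos against 41.52, 41.71 and 42.68 cRPKM in Fat4+/+ embryos (log2 fold change 0.20, adjusted p = 0.0382). Both came from the 7 cap mesenchyme genes, picked for their link to Wnt9b. All 7, which include the progenitor genes Six2 and Cited1 of the cap mesenchyme markers, had a log2 fold change above 0, as did 5317 of all 12315 tested genes, and 6 were higher with groups that did not overlap, beside 7.23% of all tested genes. The gene that fell was the secreted inhibitor Sostdc1, which had 1.40, 1.37 and 1.50 cRPKM in Fat4-/- embryos against 2.70, 2.09 and 3.27 cRPKM in Fat4+/+ embryos (log2 fold change -0.59, adjusted p = 0.0403). It was 1 of 9 further inhibitor genes, which did not fall as a list, as 6 of the 9 had a log2 fold change above 0. At an unadjusted p under 0.05 in limma, 3 of them were higher and 1 lower in Fat4-/- embryos (background 5.08% and 7.97%). None of 8 genes of Wnt secretion and co-receptors passed. The call of Slc12a2 ended without any 1 library (adjusted p 0.0740 to 0.132). That of Btbd11 ended without any 1 Fat4-/- embryo (0.0702 to 0.0894). That of Sostdc1 ended without any 1 Fat4-/- embryo (0.128 to 0.145) and without Fat4+/+ embryo 1 (0.0973).

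Of 6 genes of Wnt-induced nephron commitment (Pax8, Fgf8, Lhx1, Ccnd1, Jag1 and Dll1), none passed in limma and 4 had an unadjusted p under 0.05, all lower (background 7.97%). A log2 fold change below 0 was found for 5 of the 6, as for 6998 of all 12315 tested genes, and the median of the 6 was -0.21. All but Dll1 also stand among the early nephron markers above. The cargo receptor Wls, which carries Wnt proteins to the cell surface, had 27.32, 27.10 and 26.56 cRPKM in Fat4-/- embryos, against 31.50, 29.83 and 29.97 cRPKM in Fat4+/+ embryos (log2 fold change -0.17, adjusted p = 0.0873). None of 11 tested genes of the cytoplasmic relay and destruction complex passed in limma (median log2 fold change 0.01), and none of 10 nuclear partner genes did (median 0.04). In each of these lists 1 gene had an unadjusted p under 0.05, higher in Fat4-/- embryos (background 5.08%).

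**Figure D5:**
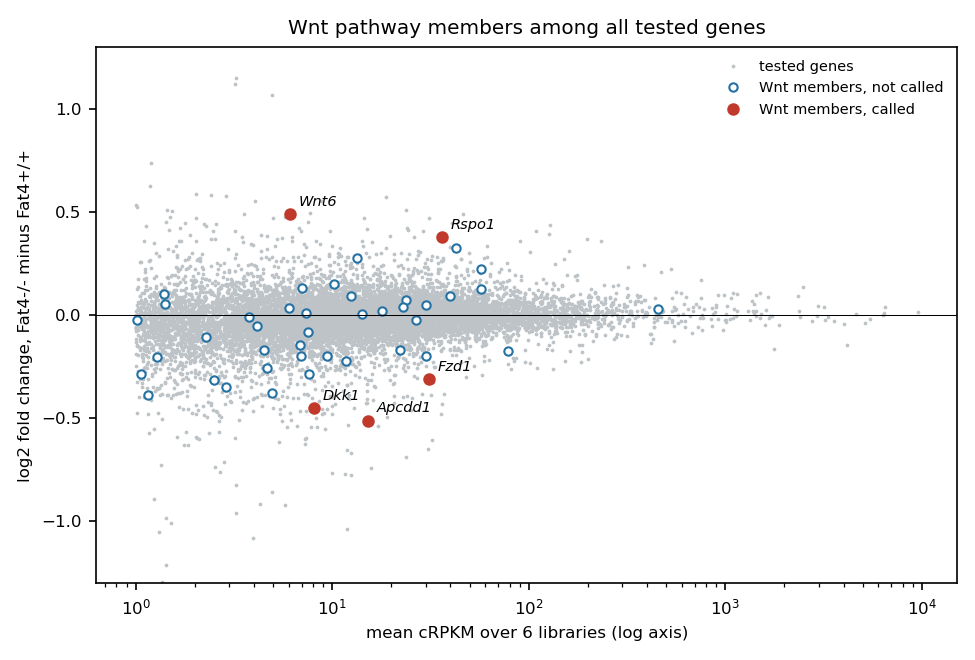
Log2 fold change (Fat4-/- minus Fat4+/+) against mean cRPKM over 6 libraries (log axis) for all tested genes (grey), with tested Wnt members as open circles and the 5 that passed as filled red circles; 8 genes lie beyond the vertical axis at 1.3. The members that passed lie at mean levels where most tested genes are near 0.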

How the data were processed

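Whole-organ RNA sequencing of 6 embryos was used. The deposited table is named by the authors as cRPKM, read here as corrected RPKM, and the column names, per the file headers, refer to trimmed reads. Bowtie and the mouse build mm9 are named in the submitters' processing notes; the nature of the correction, like the read totals, is unknown here. Values of log2(cRPKM + 1) were fitted in limma 3.58.1 (R 4.3.3) with genotype as the only term and a mean-variance trend, on 12315 genes whose mean over all 6 libraries reached 1 cRPKM, and p-values (two-sided) were adjusted by Benjamini-Hochberg over all of them at 0.05. Fold changes are therefore on the log2(cRPKM + 1) scale, which understates changes of low genes. A permutation of 3 against 3 cannot go below p = 0.1, so none was used. Genes with no value were left out. Promoters and motif matches came from RefSeq (GRCm38.p6), and distances from an annotation of GRCm38, both another build than the deposited values.

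Members and gene lists were chosen with earlier results of these data known. Genes described in full were every member that passed, the 4 with the smallest p and the 2 with the highest level in each role, and a set of members with a known place in the kidney, while the others are given more briefly. Of the further pathway genes, those that passed are named. Wls, Dll1, Six2 and Cited1 were picked after their values were seen. Alternatives covered the pseudocount, the filter, scaling, the variance model, library weights, a Y-linked covariate, a replicate block and leaving out each library.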

Additional observations from a re-analysis of the deposited data

How the results depend on the processing

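The count of members higher in Fat4-/- kidneys was 0 with no filter on low values and 0 with the Y-linked covariate, against 2 as reported, and 0 to 2 without any 1 library. The count lower was 1 with no filter, 5 with library weights, 0 with the Y-linked covariate and 5 with the replicate block, against 3, and 1 to 2 without any 1 library. For the further pathway genes it was 0 with no filter, 1 with quantile normalisation, 0 with the covariate and 6 with the block, against 3, and 0 to 2 without any 1 library. The labels do not say whether the embryo numbers mark a pairing, and the values did not settle it. Same-number correlations were 0.0985, 0.205 and 0.277. Fat4-/- embryo 1 was slightly closer to Fat4+/+ embryo 3 (0.106), and Fat4-/- embryo 2 to Fat4+/+ embryo 1 (0.227). The block gave 273 calls over all genes, against 176. With it Tcf7l1 (limma adjusted p 0.0190), Lgr5 (0.0332) and Nkd1 (0.0454) passed as well. With no filter, 32 of 18735 genes passed, with the covariate 2, and without any 1 library 24 to 132. Fat4 kept its call throughout. The members that changed sign were not called as reported or in that setting. With the covariate these were Fzd8 (-0.0301), Lrp5 (-0.00882), Lrp6 (0.0570), Notum (0.0220), Rnf43 (0.000857), Tcf7 (-0.0106), Wnt11 (-0.0138), Wnt4 (-0.0200) and Wnt8b (-0.0169). Library weights turned Lrp6 (0.0475) and Rnf43 (0.0185), quantile normalisation Rnf43 (0.0332), median centring Rnf43 (0.00873) and a pseudocount of 0.1 Wnt2 (0.0804). Without any 1 library the log2 fold change ran across 0 for Dkk2 (-0.445 to 0.0418), Fzd8 (-0.00238 to 0.0809), Lrp5 (-0.0395 to 0.127), Lrp6 (-0.0721 to 0.0260), Rnf43 (-0.0664 to 0.0634), Sfrp1 (-0.0891 to 0.230), Tcf7 (-0.0439 to 0.0963), Wnt11 (-0.0247 to 0.0590), Wnt4 (-0.0589 to 0.134) and Znrf3 (-0.0536 to 0.101). The causes were not tested. Of the other values for single genes, 684 kept direction and side of the threshold, 50 lost their call and 8 gained one.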
